A study of Mus musculus with 24 samples.

Results

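Control wounds of diabetic mice were compared between day 7 and day 1 across all genes. The comparison used the 3 day 7 and the 3 day 1 libraries of wounds that the labels call diabetic controls, 6 of the 24 libraries of the series, and all genes in them were considered. Both groups carry the diabetic control label and differ in day alone, and neither is labelled with the hydrogel Fmoc-KYF-AgNCs-3S1C-Hyd2, a peptide gel with silver nanoclusters and a hydrogenase that the study tests for light-driven hydrogen release. The other libraries were 3 control wounds at day 14, 9 hydrogel-treated wounds at days 1, 7 and 14, and 6 cultures of RAW264.7 cells, a mouse macrophage line. Each wound library was made from bulk RNA of wound tissue with an mRNA library kit. The labels name no strain, sex, age, diabetes model, wound depth or dressing of the control wounds. They do not say whether the 3 libraries of a day came from separate animals, so the p-values speak of library-to-library spread only, and that spread may be technical.

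Skin wounds pass through overlapping phases of inflammation, tissue formation and remodelling. Neutrophils arrive first and monocytes follow and become macrophages, fibroblasts then fill the gap with collagen-rich granulation tissue, and keratinocytes move in from the edge to close the surface. In mice a thin sheet of striated muscle, the panniculus carnosus, lies under the dermis and is cut with the skin. In diabetes the inflammatory phase tends to be prolonged and granulation tissue and closure tend to lag.

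The day 7 libraries held 12792552, 13586658 and 13296663 counted read pairs, and the day 1 libraries held 16008128, 19722357 and 19389015. Levels are given as CPM, counts scaled to a common library size after TMM correction. The day 7 libraries lay close together. Their coefficient of variation beyond counting noise, from 1 edgeR dispersion common to all genes, was 4.69%, against 55.7% among the day 1 libraries. Pairs of day 7 libraries gave median per-gene chi-square values of 0.643 to 0.795, where counting noise alone gives 0.455. The median gene thus differed a little beyond counting noise. Summed over 15382, 15383 and 15419 genes the values were 357262, 249315 and 41617, so some genes differed by far more. Between pairs of day 1 libraries the median was 7.30 to 30.5. Day 1 library 1 stood apart in its tissue makeup. The mean log2 CPM of 26 adult sarcomere genes was 9.0, 8.98 and 9.03 in the day 7 libraries, against 5.95, 10.23 and 10.82 in day 1 libraries 1, 2 and 3. The mean log2 CPM of 20 adipocyte genes was 9.4, 9.41 and 9.4 at day 7, against 10.003, 8.17 and 7.46 at day 1. Day 1 library 1 was thus low in muscle RNA and high in fat RNA, and many, though not all, results that rest on it are given with and without it. Fewer cells of a type and less RNA per cell cannot be told apart in these bulk libraries.

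Of 52976 gene symbols in the files, 17592 had enough counts to be tested. A gene is said to have risen or fallen where its edgeR quasi-likelihood p, adjusted over all genes tested by Benjamini-Hochberg, was below 0.05. By that rule 2637 genes (15.0%) rose at day 7 and 2916 (16.6%) fell, and the median log2 fold change over the genes tested was -0.046. Of those, 2246 rose and 1898 fell by more than 2-fold. The 3 day 7 and 3 day 1 libraries did not overlap for 8769 genes (49.8%), with day 7 higher for 4590 (26.1%) and lower for 4179 (23.8%). Among named genes with at least 5 CPM in the higher group, the 12 largest increases had log2 fold changes of 5.53 to 7.56. They were genes of forming muscle fibres (Chrng, Myh3, Mymk and Mymx), of fibroblasts and matrix (Lrrc15, Sfrp2, C1qtnf3, Mfap4, Crabp1 and Fbn2), the monocyte-attracting chemokine Ccl8 and the cytotoxic granule protease Gzmb. The 12 largest decreases, -5.77 to -7.55, were 6 genes of the outer epidermis (Alox12b, Kprp, Flg2, Cnfn, Lce1m and Lypd3), the epithelial transcription factor Sox15, the muscle genes Trim63 and Hspb7, the neutrophil chemokine Cxcl3, the sensory neuropeptide gene Calcb and Arhgap40. Calcb had 2 counts in the day 7 libraries and 449 in the day 1 libraries, a level 219-fold lower at day 7 with a 95% counting interval of 60.2 to 1810, and its fitted value depends on the prior count. The number of calls depended on single libraries. Without day 1 library 1, 4088 genes rose and 3865 fell. Without day 1 library 2, 1561 rose and 1743 fell. Without day 7 library 1, 2 or 3 the fallen genes numbered 1637, 1674 and 1679. When the 3 day 7 libraries of each arm were summed and counted as 1 sample, 87 genes rose and 10 fell, all of them among the genes called with the libraries kept apart. In that setting 5 of 20 muscle regeneration genes, 4 of 15 myofibroblast genes and 3 of 20 collagen genes still rose, and no macrophage, mitosis, keratinocyte, immediate early or glycolysis gene was called. List counts of 5 or fewer often moved by 1 or more genes when a single library was left out, and they are given as descriptions.

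**Figure D1:**
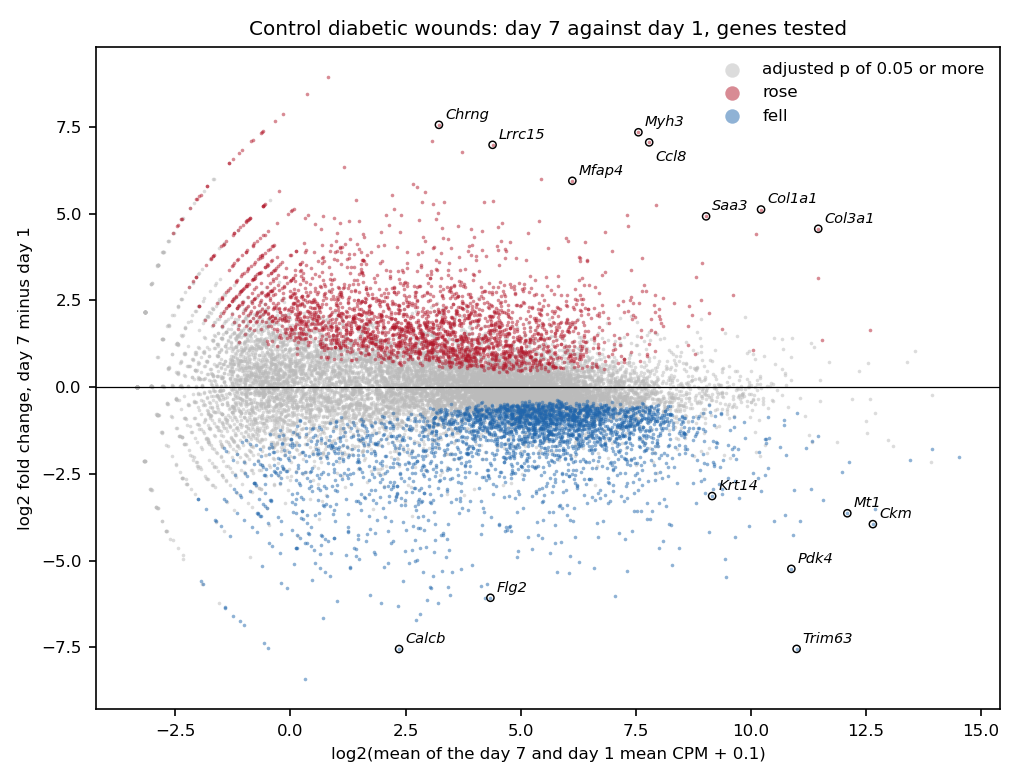
Each point is 1 of 17592 genes tested, with the log2 of its mean CPM over both days (plus 0.1) on the horizontal axis and its log2 fold change, day 7 minus day 1, on the vertical axis; red genes rose and blue genes fell at an adjusted p below 0.05, and grey genes did not pass. Chrng (7.56) and Myh3 (7.34) lie at the top and Calcb (-7.55) and Trim63 (-7.54) at the bottom of the named genes, while Col1a1 and Col3a1 combine high levels with log2 fold changes of 5.12 and 4.56.

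Genes of the fibrillar collagens that fill granulation tissue rose, Col1a1 and Col3a1 to over 2000 CPM in each day 7 library. Of 20 collagen chain genes, all of them tested, 11 rose and 1 fell, beside 15.0% rising and 16.6% falling among all genes tested; their median log2 fold change was 1.80. Col1a1 (chromosome 11, 94936224 to 94953042, plus strand, GRCm38) encodes the alpha-1 chain of type I collagen, the bulk fibre of dermis. It had 2369, 2297 and 2300 CPM at day 7, against 99.2, 43.9 and 57.3 CPM at day 1. Every day 7 library was above every day 1 library, and the log2 fold change was 5.12 ± 0.44 SE, edgeR adjusted p = 8.35e-06. Col3a1, the type III collagen of early granulation tissue, had 5429, 5464 and 5372 CPM at day 7, against 498, 88.4 and 102 CPM at day 1, with a log2 fold change of 4.56 ± 0.73 SE, edgeR adjusted p = 0.000641. Of the day 1 libraries the first was the highest for both genes, but it stayed far below day 7. Col8a1, a short-chain collagen of vessels and injured tissue, rose by 3.98, Col1a2 by 3.16 and Col5a1 by 3.38 on the log2 scale. The chain that fell was Col17a1, a hemidesmosome collagen of basal keratinocytes, at 61.6, 53.9 and 58.5 CPM at day 7, against 161, 402 and 570.4 CPM at day 1; it is named here after its value was seen. The basement membrane chains Col4a1 and Col4a2 (log2 fold changes -0.64 and -0.75), likewise named afterwards, did not pass the test.

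Enzymes and proteins that process, cross-link and space the collagen fibres rose in part with the chains. Of 18 processing and cross-linking genes 9 rose and 1 fell (median log2 fold change 0.71), and of 18 proteoglycan and elastic fibre genes 10 rose and 1 fell (median 1.62). Medians given for the lists that follow are of log2 fold changes as well. P4ha3, a prolyl hydroxylase subunit, had 12, 13.8 and 16.3 CPM at day 7, against 0.408, 0.0758 and 0.507 CPM at day 1. The lysyl oxidase family members Loxl3 and Loxl2, which cross-link collagen, rose by 2.63 and 2.2 on the log2 scale, and Bmp1, which trims procollagen, by 1.59. Lox itself had 197, 199 and 178 CPM at day 7, against 91.5, 46.3 and 65.6 CPM at day 1, and its call (log2 fold change 1.5 ± 0.53 SE, edgeR adjusted p = 0.041) was lost when any single library other than day 1 library 1 was left out. Mfap4, a microfibril-associated protein, had 142, 136 and 134 CPM at day 7, against 1.83, 1.74 and 3.04 CPM at day 1, a log2 fold change of 5.95 ± 0.42 SE, edgeR adjusted p = 1.02e-06. Fbn2, the fibrillin of developing elastic fibres, had 9.67, 8.54 and 8.24 CPM at day 7, against 0, 0.303 and 0.254 CPM at day 1. The small leucine-rich proteoglycan Lum, which spaces collagen fibrils, had 309.8, 315 and 301 CPM at day 7, against 19.4, 6.75 and 10.8 CPM at day 1 (log2 fold change 4.64 ± 0.50 SE, edgeR adjusted p = 5.64e-05). Bgn, its relative biglycan, rose by 3.59 on the log2 scale. The day 7 libraries lay above all day 1 libraries for each of P4ha3, Lox, Mfap4, Fbn2 and Lum. The members that fell were the cross-linking transglutaminase Tgm2 (log2 fold change -2.16) and the matricellular Thbs1 (log2 fold change -1.88), both named after their values were seen.

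Markers of the fibroblasts themselves rose as well. Of 16 myofibroblast and wound fibroblast genes 15 were tested, 8 rose and none fell (median 2.30). Lrrc15, a marker of matrix-producing myofibroblasts, had 42.0, 41.5 and 40.9 CPM at day 7, against 0.408, 0.303 and 0.254 CPM at day 1. Its log2 fold change was 6.98 ± 0.39 SE, edgeR adjusted p = 1.7e-07, the smallest p of the named genes. Tnc, a matrix protein of healing tissue, had 242, 231 and 236 CPM at day 7, against 26.8, 6.44 and 13.7 CPM at day 1. Cthrc1, a secreted protein of activated fibroblasts, rose by 4.62 and Aspn, the collagen-binding proteoglycan asporin, by 3.63 on the log2 scale. Postn, the granulation tissue protein periostin, had 840.4, 828 and 808 CPM at day 7, against 313, 76.7 and 45.1 CPM at day 1, a log2 fold change of 2.51 ± 0.60 SE, edgeR adjusted p = 0.00685. The level in day 1 library 1 lay between the other day 1 libraries and day 7. Acta2, the smooth muscle actin of contractile myofibroblasts, had 285, 278 and 290.3 CPM at day 7, against 119.5, 132 and 225 CPM at day 1; the libraries did not overlap, but it did not pass the test (log2 fold change 0.84 ± 0.39 SE, edgeR adjusted p = 0.113). The contractile gene Tagln was at or below 0.745 CPM in all 6 libraries and was not tested. Pairs were counted without strand, so levels of genes overlapped by a gene on the opposite strand are uncertain. Whether this lowered the Tagln count was not tested. Of 19 fibroblast markers 18 were tested, 11 rose and none fell (median 1.81), among them Thy1 (log2 fold change 2.21), the protease Fap (log2 fold change 2.90) and the transcription factor Prrx1 (log2 fold change 1.76). That count was 4 without day 1 library 3 and 5 without day 1 library 2. It was 6, 6 and 5 without day 7 library 1, 2 or 3, and 4 with only the 9 control libraries fitted.

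Matrix-degrading enzymes divided into risers and fallers. Of 20 metalloproteinase, TIMP and plasminogen genes 6 rose and 6 fell (median 0.75). Mmp13, a collagenase, had 2.38, 3.05 and 3.14 CPM at day 7, against 0.136, 0.152 and 0.0634 CPM at day 1. Mmp23 had 31.8, 33.4 and 34.6 CPM at day 7, against 2.85, 1.29 and 2.22 CPM at day 1; both rose without overlap, by 4.55 and 3.96 on the log2 scale. Mmp11, a stromal metalloproteinase, rose by 2.16 on the log2 scale, and the aggrecanase Adamts1 fell, with 40.2, 38.7 and 39.8 CPM at day 7, against 151, 119.7 and 103 CPM at day 1. Timp1, the inducible inhibitor, had 60.2, 63.5 and 61.9 CPM at day 7, against 79.4, 23.3 and 29.5 CPM at day 1, where day 1 library 1 lay above day 7 and the other libraries below (log2 fold change 0.49 ± 0.48 SE, edgeR adjusted p = 0.451). Of 20 TGF-beta ligands, receptors and targets 4 rose (20%) and 2 fell (10%), beside 15.0% and 16.6% of all genes tested (median 0.16). The risers were 1 without day 1 library 2, 2 without day 1 library 3 and 6 without day 1 library 1. The activin subunits moved in opposite directions. Inhba had 3.20, 2.78 and 2.17 CPM at day 7, against 0.204, 0.379 and 0.697 CPM at day 1. Inhbb had 19.8, 20.4 and 19.4 CPM at day 7, against 108, 74.0 and 43.1 CPM at day 1. Tgfb1, the ligand that drives matrix synthesis, had 70.8, 77.6 and 72.5 CPM at day 7, against 53.3, 24.4 and 21.0 CPM at day 1 (log2 fold change 1.16 ± 0.33 SE, edgeR adjusted p = 0.0161), a call lost without day 1 library 2 or 3.

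**Figure D2:**
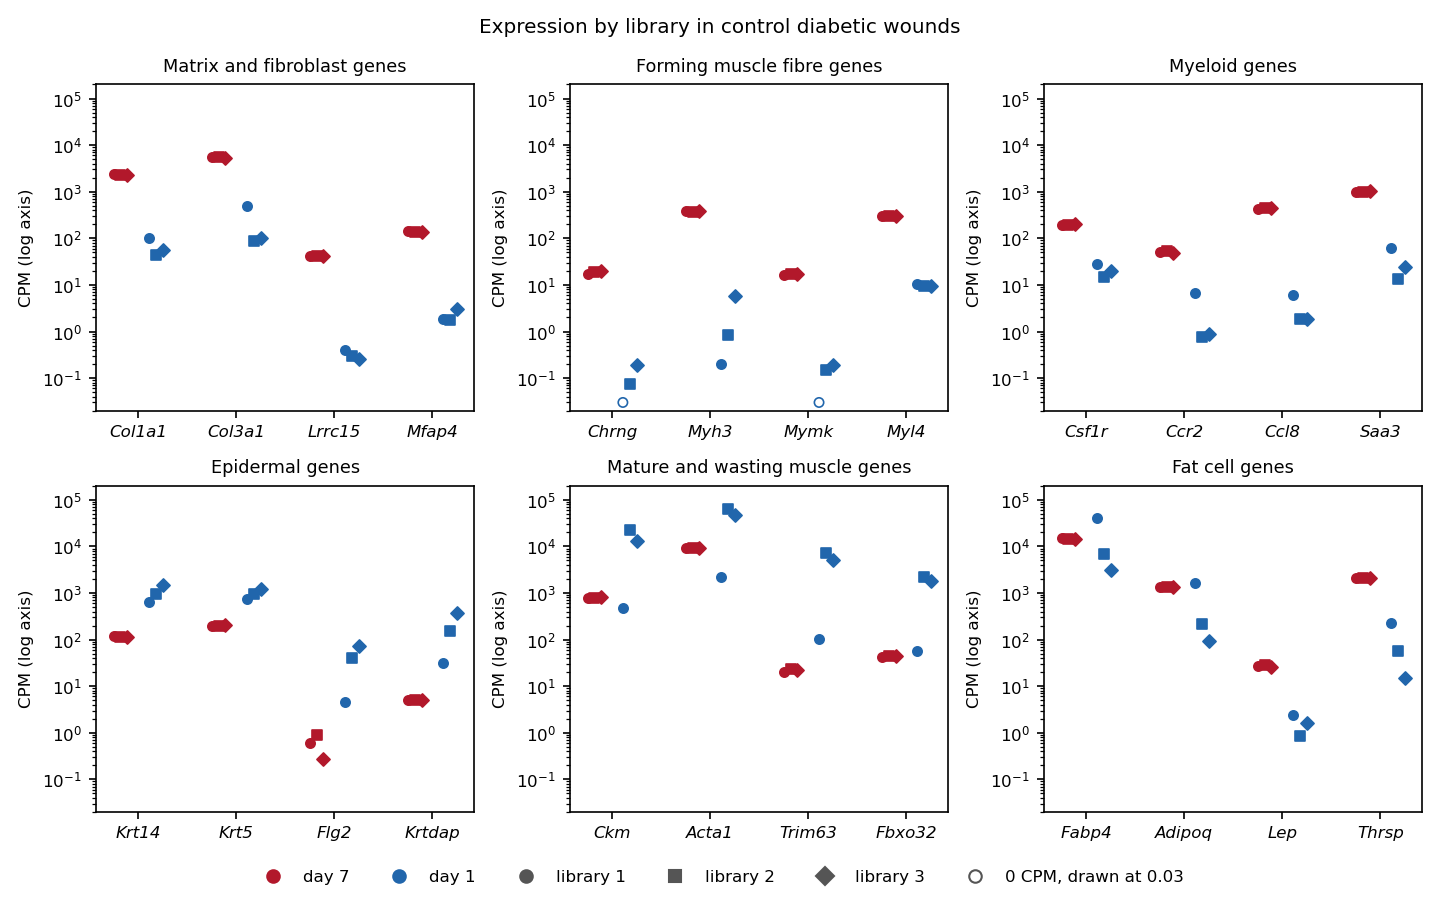
Each marker is 1 library, with CPM on a log axis, day 7 in red to the left of day 1 in blue for each gene; open markers stand for 0 CPM drawn at 0.03. The day 7 markers nearly coincide for most of the genes shown, Col1a1 at 2369, 2297 and 2300 CPM for example. Flg2, at 0.595, 0.881 and 0.279 CPM, is an exception. The day 1 markers of the mature muscle and fat cell genes spread widely, with library 1 (circles) low in Ckm and high in Fabp4.

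Genes of newly forming muscle fibres supplied 3 of the 4 highest fold changes among the leading genes, in wounds whose muscle content differed between libraries. Of 20 muscle regeneration genes, all tested, 9 rose and 3 fell (median 1.48). Chrng, the fetal subunit of the muscle acetylcholine receptor (chromosome 1, 87204657 to 87212694, plus strand, GRCm38), had 16.7, 18.8 and 19.8 CPM at day 7, against 0, 0.0758 and 0.19 CPM at day 1. The 3 day 1 libraries held 4 counts of it in all, and the day 7 libraries 785; the log2 fold change was 7.56 ± 0.97 SE, edgeR adjusted p = 0.000194. Myh3, the embryonic myosin heavy chain, had 379, 366 and 378 CPM at day 7, against 0.204, 0.834 and 5.77 CPM at day 1 (log2 fold change 7.34 ± 1.06 SE, edgeR adjusted p = 0.000355). Myl4, the embryonic light chain, had 307, 306 and 304 CPM at day 7, against 10.3, 9.32 and 9.57 CPM at day 1. For all 3 genes each day 1 library lay below each day 7 library. Mymk, the membrane protein myomaker that fuses myoblasts, had 16, 16.9 and 17 CPM at day 7, against 0, 0.152 and 0.19 CPM at day 1. Mymx, its partner myomixer, had 13.7, 12 and 13.6 CPM at day 7, against 0.0679, 0.455 and 0.19 CPM at day 1. No library of one day overlapped the other for any of these 5 genes. The myoblast factor Myog, which starts terminal differentiation, behaved otherwise: it had 64.9, 64.6 and 65.1 CPM at day 7, against 2.31, 76.1 and 66.2 CPM at day 1, so that only day 1 library 1 was low. Its log2 fold change was 0.43 ± 0.70 SE, edgeR adjusted p = 0.665, and it turned to -0.14 without that library.

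The promoter of Chrng, the highest fold change among the leading named genes, is shown because myogenic factors bind E-boxes. The sequence is the 250 bases before the gene's RefSeq start (promoter table of GRCm38.p6). That start lies inside the longer span that the files give for the gene. It is written 5′ to 3′ with the E-box CAGCTG, which reads the same on both strands, in capitals.
Chrng chr1:87205561-87205810 plus strand: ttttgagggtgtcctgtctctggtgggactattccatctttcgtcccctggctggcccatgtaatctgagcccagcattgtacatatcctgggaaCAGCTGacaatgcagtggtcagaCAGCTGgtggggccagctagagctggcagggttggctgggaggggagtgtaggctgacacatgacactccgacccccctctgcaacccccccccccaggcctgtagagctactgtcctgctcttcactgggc
It holds CAGCTG 2 times. Among the 14 muscle regeneration genes found in that table, 5 (35.7%, exact 95% interval 12.8 to 64.9%) held CAGCTG in the 300 bases from 250 before to 50 after the start, against 18.3% of 27025 genes. That interval includes the share of all genes. Myh3, Myl4 and Myog did not hold the E-box, and Trim63, which fell, did. The E-box was picked after the values were seen, and a match is no evidence of binding.

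The 3 regeneration genes that fell belong to muscle wasting and growth restraint: Trim63 and Fbxo32 encode the ubiquitin ligases of muscle atrophy, and Mstn encodes the growth inhibitor myostatin. Mstn is named after its value was seen. Trim63 had 20.6, 23.0 and 21.7 CPM at day 7, against 102, 7057 and 5018 CPM at day 1 (log2 fold change -7.54 ± 1.27 SE, edgeR adjusted p = 0.000922). Fbxo32 had 42.5, 44.6 and 45 CPM at day 7, against 56.7, 2195 and 1804 CPM at day 1. Mstn had 4.39, 3.46 and 4.40 CPM at day 7, against 4.89, 117 and 129.7 CPM at day 1. Day 1 library 1, poor in muscle RNA, was far lower than the other day 1 libraries for all of them, and for Fbxo32 and Mstn it lay near day 7. The genes of mature fibres gave a result that rested on single libraries. Of 26 adult sarcomere genes 8 fell and 1 rose (median -1.53), but 19 fell without day 1 library 1. Only 2 fell without day 1 library 2, 5 without day 1 library 3 and 2 without any 1 of the day 7 libraries. Ckm, the muscle creatine kinase, had 768, 778 and 802 CPM at day 7, against 479.6, 22820 and 12950 CPM at day 1 (log2 fold change -3.95 ± 0.87 SE, edgeR adjusted p = 0.0045), with day 1 library 1 below day 7. Acta1, skeletal muscle actin, had 9395, 9281 and 9369 CPM at day 7, against 2241, 62270 and 47600 CPM at day 1 and lost its call without any library but day 1 library 1. Myh4, the fast myosin, had 5684, 5528 and 5617 CPM at day 7, against 1108, 45570 and 28400 CPM at day 1 and did not pass (log2 fold change -2.16 ± 0.83 SE, edgeR adjusted p = 0.059). The member that rose was Tnni1, the slow-fibre troponin I, with 139.6, 141 and 152 CPM at day 7, against 0.747, 1.74 and 32.5 CPM at day 1. None fell when only the 6 libraries were fitted. Of the regeneration genes 9 rose without day 1 library 1, as with it, and 13 rose with each library's mean sarcomere and adipocyte level as covariates.

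**Figure D3:**
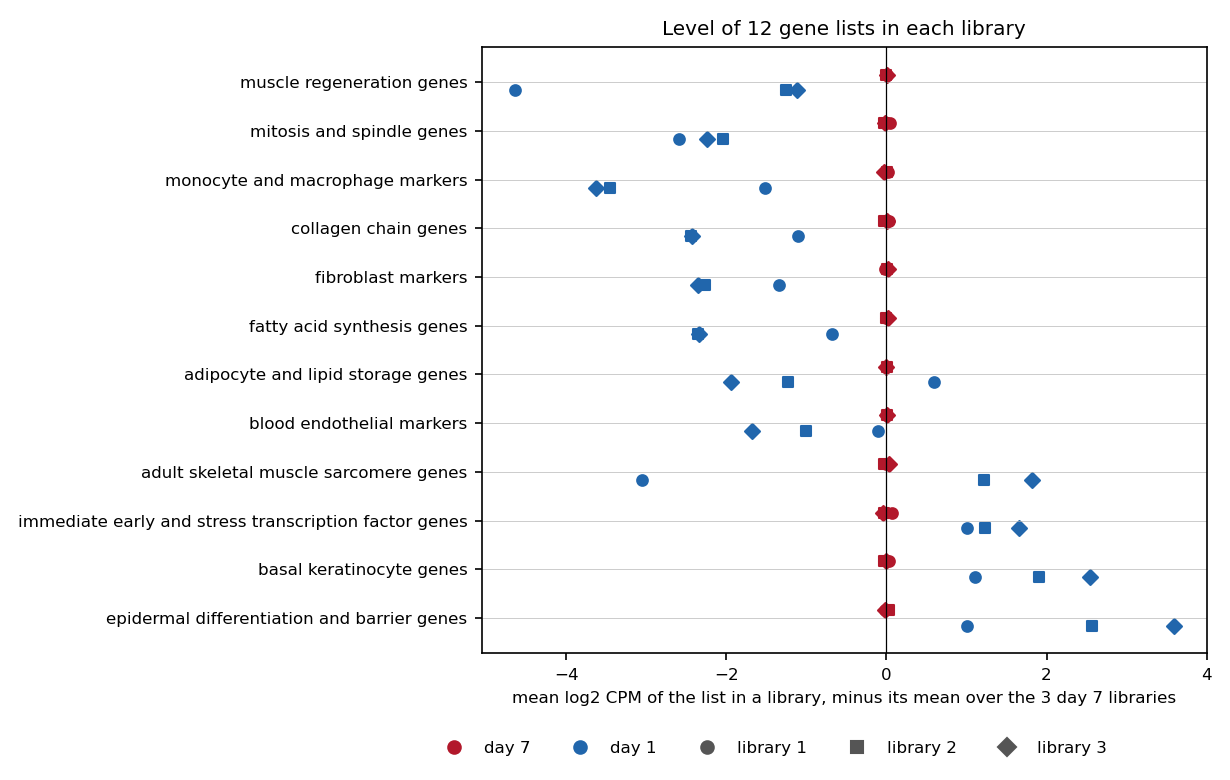
Each marker is 1 library, placed by its mean log2 CPM over a gene list minus the mean of the 3 day 7 libraries (red, above; day 1 in blue, below). Muscle regeneration, mitosis, macrophage, collagen and fibroblast lists lie below 0 in all 3 day 1 libraries, keratinocyte and immediate early lists above 0 in all 3, and day 1 library 1 (circles) departs from its group in the adult muscle list (5.95, 10.23 and 10.82 for libraries 1 to 3) and the adipocyte list.

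Genes of cell division rose together. Of 22 mitosis and spindle genes, all tested, 20 rose and none fell (median 2.32), and in all 22 the 3 day 7 libraries lay above the 3 day 1 libraries, as they did for 26.1% of the genes tested. Birc5, survivin of the chromosomal passenger complex, had 15.8, 13.2 and 15.9 CPM at day 7, against 1.5, 1.44 and 1.46 CPM at day 1 (log2 fold change 3.35 ± 0.52 SE, edgeR adjusted p = 0.000567). Mki67, the proliferation antigen Ki-67, had 35.9, 35.0 and 35.0 CPM at day 7, against 4.82, 4.47 and 3.99 CPM at day 1. Top2a, the topoisomerase of dividing cells, had 24.2, 22.8 and 23.5 CPM at day 7, against 3.19, 4.93 and 5.51 CPM at day 1. Ccna2 and Ccnb2, the cyclins of S phase to mitosis, rose by 2.62 and 2.91 and the kinase Aurkb by 2.73 on the log2 scale. The members short of the test were Cdc20 and Ube2c, which drive anaphase, at adjusted p = 0.072 and 0.0842 in edgeR. The count was 17 or 18 with any 1 library left out, 10 under limma-voom with quality weights, 13 with only the 9 control libraries fitted and 22 under DESeq2. Of 20 DNA replication genes 6 rose and none fell (median 0.82), a count that was 3 without day 1 library 2; a difference between the lists was not tested. The highest-ranked of them was Gins2, a subunit of the replicative helicase (log2 fold change 1.72 ± 0.36 SE, edgeR adjusted p = 0.00316), followed by the thymidine kinase Tk1 (log2 fold change 2.03) and the origin-licensing Cdc6 (log2 fold change 1.92). The sliding clamp Pcna, named after its value was seen, had 64.3, 62.5 and 63.1 CPM at day 7, against 94.1, 67.8 and 80.1 CPM at day 1.

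Promoters of mitotic genes are known to carry CCAAT boxes and the cell cycle homology element TTTGAA, so 3 of them are shown to let the arrangement be seen: Ccnb2 and Cdk1 hold both, Ccnb1 holds CCAAT alone in this window. Each sequence is the 250 bases before the start in the RefSeq table (GRCm38.p6), 5′ to 3′ on the strand of the gene, with TTTGAA and CCAAT, or TTCAAA and ATTGG for the other strand, in capitals.
Ccnb2 chr9:70421555-70421804 minus strand: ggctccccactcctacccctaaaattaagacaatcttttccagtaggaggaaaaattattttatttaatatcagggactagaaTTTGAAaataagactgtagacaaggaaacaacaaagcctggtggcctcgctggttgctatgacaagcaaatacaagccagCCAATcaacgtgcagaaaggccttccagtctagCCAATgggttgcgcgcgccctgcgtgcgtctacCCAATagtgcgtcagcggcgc
Cdk1 chr10:69352913-69353162 minus strand: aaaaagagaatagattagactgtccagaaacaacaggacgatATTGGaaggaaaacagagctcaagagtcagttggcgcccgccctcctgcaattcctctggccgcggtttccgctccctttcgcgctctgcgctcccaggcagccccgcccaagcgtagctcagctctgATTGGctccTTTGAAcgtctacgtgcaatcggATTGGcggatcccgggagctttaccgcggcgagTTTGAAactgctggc
Ccnb1 chr13:100786487-100786736 minus strand: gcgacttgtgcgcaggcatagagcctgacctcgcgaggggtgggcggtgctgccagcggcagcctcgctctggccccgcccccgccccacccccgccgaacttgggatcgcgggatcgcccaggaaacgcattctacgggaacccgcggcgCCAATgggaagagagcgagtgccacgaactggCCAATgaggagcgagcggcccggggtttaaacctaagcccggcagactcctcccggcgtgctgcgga
CCAAT occurred 3 times in Ccnb2, 3 times in Cdk1, where it was always on the other strand, and 2 times in Ccnb1. TTTGAA occurred 1 time in Ccnb2, 2 times in Cdk1 and 0 times in Ccnb1. None of these matches overlapped another. Ccnb2 rose by 2.91, Cdk1 by 2.32 and Ccnb1 by 1.68 on the log2 scale. Of the 18 mitosis genes matched in the table, 13 (72.2%, exact 95% interval 46.5 to 90.3%) held TTTGAA on either strand in the 300 bases from 250 before to 50 after the start, against 20.2% of 27025 genes; in the 250 bases before the start alone the shares were 44.4% and 18.3%. CCAAT on either strand was held by 16 of 18 (88.9%), against 41.1%. A match describes the letters of the window and not a bound site.

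Macrophage genes rose broadly. Of 20 monocyte and macrophage markers, all tested, 15 rose and none fell (median 2.56). Csf1r, the receptor that macrophages need to survive, had 195, 198 and 198 CPM at day 7, against 28.3, 14.7 and 20.1 CPM at day 1 (log2 fold change 3.23 ± 0.56 SE, edgeR adjusted p = 0.00107). Ccr2, the receptor that brings monocytes into tissue, had 51.8, 54.1 and 49.2 CPM at day 7, against 6.79, 0.758 and 0.887 CPM at day 1. Cx3cr1, the fractalkine receptor, had 6.69, 5.62 and 5.03 CPM at day 7, against 0.272, 0.227 and 0.697 CPM at day 1. The Fc receptor Fcgr1 rose by 3.08 on the log2 scale, and Adgre1, the F4/80 antigen, had 49.2, 52.3 and 52.3 CPM at day 7, against 17.2, 1.52 and 1.77 CPM at day 1, a call lost without day 1 library 2 or 3. Csf1r, Ccr2 and Adgre1 were highest in library 1 among the day 1 libraries, and every day 7 library was higher still. Cd68, a lysosomal marker, had 113, 115 and 117 CPM at day 7, against 81.2, 220.1 and 268 CPM at day 1 and did not pass (log2 fold change -0.72 ± 0.41 SE, edgeR adjusted p = 0.188), with day 1 libraries 2 and 3 above day 7 and library 1 below. The macrophage count was 6 without day 1 library 2, 7 without day 1 library 3 and 6 with only the 9 control libraries fitted. Of 15 genes of alternative macrophage activation 14 were tested, 6 rose and 1 fell (median 1.25), and only 2 rose without day 1 library 2. Retnla, an interleukin-4 target in mouse macrophages, had 45.7, 49.9 and 47.3 CPM at day 7, against 13.9, 14 and 10.2 CPM at day 1, and the lectin Mgl2 rose by 1.55 on the log2 scale. Mrc1, the mannose receptor, had 276, 275 and 269 CPM at day 7, against 162, 22.1 and 12.9 CPM at day 1 and did not pass (log2 fold change 2.06 ± 0.83 SE, edgeR adjusted p = 0.0694). Arg1, arginase, had 9.97, 7.86 and 8.03 CPM at day 7, against 14.3, 16.3 and 33.9 CPM at day 1 and did not pass (log2 fold change -1.32 ± 0.59 SE, edgeR adjusted p = 0.0974). Spp1, osteopontin, had 101, 96.9 and 97.1 CPM at day 7, against 32.1, 7.51 and 42.8 CPM at day 1 and rose (log2 fold change 1.84 ± 0.51 SE, edgeR adjusted p = 0.0142). Gpnmb, a gene of lipid-laden macrophages, had 120.0, 110.3 and 114 CPM at day 7, against 76.8, 30.9 and 57.0 CPM at day 1 and did not pass (log2 fold change 1.06 ± 0.53 SE, edgeR adjusted p = 0.134). Nos2, the inducible nitric oxide synthase, had 12.6, 10.5 and 11 CPM at day 7, against 2.92, 1.74 and 0.444 CPM at day 1 (log2 fold change 2.74 ± 0.49 SE, edgeR adjusted p = 0.00125), while Odc1, the first enzyme of polyamine synthesis, fell by 2.52 on the log2 scale.

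Antigen presentation genes and many lymphocyte genes also rose. Of 16 class II and dendritic cell genes 11 rose and 1 fell (median 1.78), and 10 to 13 rose with any 1 library left out. Cd74, the class II invariant chain, had 421, 429 and 425 CPM at day 7, against 84.7, 51.4 and 134 CPM at day 1 (log2 fold change 2.24 ± 0.38 SE, edgeR adjusted p = 0.000949). H2-Aa, a class II chain, had 245, 250 and 246 CPM at day 7, against 39.3, 30.1 and 97.3 CPM at day 1. Ciita, the class II transactivator, rose by 2.53 on the log2 scale. The one that fell, named after its value was seen, was Cd207 (langerin), the marker of epidermal Langerhans cells, with 0.223, 0.542 and 0.279 CPM at day 7, against 0.476, 3.94 and 13.8 CPM at day 1. The class II and dendritic list held no fallen gene without day 1 library 3. Of 20 T and NK cell markers 18 were tested, 11 rose and 1 fell (median 1.99), with 6 rising without day 1 library 2 and 7 without day 7 library 1. Gzmb, granzyme B, had 12.9, 12.8 and 11 CPM at day 7, against 0.408, 0 and 0.19 CPM at day 1 (log2 fold change 5.86 ± 1.02 SE, edgeR adjusted p = 0.00109). Cd4, the helper T cell coreceptor, had 4.09, 4.0 and 4.33 CPM at day 7, against 0.272, 0.227 and 0.19 CPM at day 1. Cd247, the CD3 zeta chain, had 7.88, 8.06 and 8.24 CPM at day 7, against 0.679, 1.36 and 1.58 CPM at day 1. Cd3e, the CD3 epsilon chain of T cells, fell, with 0.372, 0.203 and 0.209 CPM at day 7, against 2.04, 1.36 and 1.71 CPM at day 1 (log2 fold change -2.68 ± 0.56 SE, edgeR adjusted p = 0.00325). Cd3g, the CD3 gamma chain, named after its value was seen, had 1.49, 1.35 and 1.19 CPM at day 7, against 0.612, 1.82 and 4.56 CPM at day 1 and did not pass. Mast cell markers gave 2 rises among 8 tested of 10 listed. Mcpt4, a connective tissue mast cell protease, had 13.2, 13.6 and 14.2 CPM at day 7, against 1.16, 0.531 and 6.46 CPM at day 1 and did not pass (log2 fold change 2.31 ± 0.92 SE, edgeR adjusted p = 0.0656). Hpgds, a prostaglandin synthase of mast cells, rose by 1.23 on the log2 scale. Of 10 B and plasma cell markers 5 were tested, 3 rose and 1 fell. The 3, Cd79b, Blk and Jchain, stayed under 3 CPM, and none of them rose without day 1 library 2 or day 7 library 1 or 3. The 1 that fell, Xbp1, is used by many secretory cells.

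The count of neutrophil markers rested on single libraries, and the neutrophil-attracting chemokines that passed fell. Of 21 neutrophil markers 17 were tested, 2 rose and 1 fell (median -0.60), beside 15.0% and 16.6% of all genes tested. Without day 1 library 1, 6 rose, and none rose without day 1 library 2 or 3 or day 7 library 1 or 3. S100a8, a granulocyte calprotectin subunit, had 54.1, 56.2 and 48.7 CPM at day 7, against 41.6, 160.1 and 143 CPM at day 1 and did not pass (log2 fold change -1.12 ± 0.73 SE, edgeR adjusted p = 0.252). Csf3r, the G-CSF receptor, had 18.7, 17.5 and 17.9 CPM at day 7, against 9.04, 2.12 and 2.54 CPM at day 1 and rose (log2 fold change 1.98 ± 0.65 SE, edgeR adjusted p = 0.0304), a call lost without any library but day 1 library 1. Lcn2, an iron-binding protein of neutrophils and stressed epithelium, fell, with 347, 357 and 351 CPM at day 7, against 980.0, 1479 and 1143 CPM at day 1 (log2 fold change -1.77 ± 0.33 SE, edgeR adjusted p = 0.00152). The surface antigen gene Ly6g and the granule genes Ngp, Camp and Ltf stayed under 0.5 CPM in every library and were not tested. Of 13 neutrophil-attracting chemokines and colony-stimulating factors 10 were tested, 3 fell and none rose (median -1.38), though 2 rose without day 1 library 1. Cxcl1, a ligand of the neutrophil receptor CXCR2, had 1.12, 1.42 and 0.559 CPM at day 7, against 20.3, 6.14 and 14.3 CPM at day 1 (log2 fold change -3.71 ± 0.59 SE, edgeR adjusted p = 0.000622). Cxcl3, a relative, had 0.297, 0.474 and 0.0698 CPM at day 7, against 42.0, 1.9 and 4.18 CPM at day 1, with day 1 library 1 far above the others. Cxcl2, a further CXCR2 ligand, had 2.83, 2.10 and 1.96 CPM at day 7, against 9.72, 1.29 and 4.44 CPM at day 1 and did not pass (log2 fold change -1.17 ± 0.64 SE, edgeR adjusted p = 0.171). Il1b, the early inflammatory interleukin, had 4.76, 4.95 and 4.68 CPM at day 7, against 5.16, 2.05 and 3.42 CPM at day 1 and did not pass (log2 fold change 0.43 ± 0.67 SE, edgeR adjusted p = 0.646). Il6 had 0.446, 0.474 and 0.279 CPM at day 7, against 2.04, 0.379 and 0.507 CPM at day 1 and did not pass (log2 fold change -1.28 ± 0.74 SE, edgeR adjusted p = 0.198). Both overlapped between the days. Of 22 interleukin-1, interleukin-6 and TNF family genes 20 were tested. Of these 2 rose (10%) and 4 fell (20%), beside the 15.0% and 16.6% of all genes tested (median -0.46). Tnfrsf12a, the receptor Fn14 of injured tissue, fell by 2.84 on the log2 scale with 36.3, 41.0 and 38.3 CPM at day 7, against 176, 328 and 322 CPM at day 1. Il10ra, the interleukin-10 receptor, rose by 2.61 on the log2 scale.

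Ccl8 and the serum amyloid A genes rose the most of the chemokine and acute-phase genes. Ccl8, the monocyte chemoattractant MCP-2, had 435, 437 and 447 CPM at day 7, against 6.18, 1.82 and 1.9 CPM at day 1 (log2 fold change 7.05 ± 0.98 SE, edgeR adjusted p = 0.000294). Ccl5, which attracts T cells and monocytes, had 13.4, 13.0 and 12.4 CPM at day 7, against 2.72, 0.455 and 0.317 CPM at day 1. Ccl20, which attracts CCR6-bearing cells, fell, with 0.0744, 0.271 and 0 CPM at day 7, against 1.16, 4.09 and 8.55 CPM at day 1. Of 18 such CC and interferon-inducible CXC chemokines 16 were tested, and 6 rose without day 1 library 1. With all libraries 3 rose (18.75%) and 2 fell (12.5%), beside 15.0% and 16.6% of all genes tested (median 0.26). Saa3, the serum amyloid A made by inflamed tissue, had 1006, 1004 and 1024 CPM at day 7, against 62.3, 13.1 and 24.6 CPM at day 1 (log2 fold change 4.92 ± 1.19 SE, edgeR adjusted p = 0.007). Saa1 and Saa2 are near-identical copies whose shared pairs were not counted, so their levels are uncertain. Saa1 had 143, 142 and 148 CPM at day 7, against 17.1, 8.19 and 7.79 CPM at day 1. Saa2 had 214, 224 and 219 CPM at day 7, against 20.04, 4.85 and 5.01 CPM at day 1. Of 15 acute-phase, alarmin and antimicrobial genes 13 were tested, 5 rose and 3 fell (median 1.27); the risers numbered 3 without any 1 library other than day 1 library 1, while at most 2 fell when any 1 library was left out. Toll-like receptor and NF-kappaB genes gave 6 rises and 2 falls among 20 (median 0.33). Tlr2 and Tlr1, partners in sensing lipoproteins, rose by 2.65 and 3.43 on the log2 scale. Nfkbia, the inhibitor induced by NF-kappaB, had 69.8, 73.7 and 71.6 CPM at day 7, against 167, 153 and 177 CPM at day 1 and fell (log2 fold change -1.21 ± 0.17 SE, edgeR adjusted p = 0.00033); the risers were 3 without day 1 library 2. Of 20 type I interferon response genes 7 rose and none fell (median 1.17), led by the antiviral synthetases Oas2 (log2 fold change 2.60 ± 0.37 SE, edgeR adjusted p = 0.000349) and Oas3 (log2 fold change 3.41) and the signal transducer Stat2 (log2 fold change 0.94). That count was 18 without day 1 library 1, 15 with the muscle and adipocyte covariates, 3 without day 1 library 2 and 4 without day 1 library 3.

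Many epidermal genes fell, in the basal, differentiated and wound-edge lists. Of 15 basal keratinocyte genes 9 fell and none rose (median -2.08). With any 1 library left out 6 to 12 fell, and 4 fell with only the 9 control libraries fitted. Krt14, a keratin of the basal layer, had 119.9, 116 and 114 CPM at day 7, against 636, 961 and 1485 CPM at day 1 (log2 fold change -3.14 ± 0.63 SE, edgeR adjusted p = 0.00256). Krt5, its partner, had 199.6, 198 and 204 CPM at day 7, against 754, 956 and 1209 CPM at day 1, a log2 fold change of -2.28 ± 0.54 SE, edgeR adjusted p = 0.00677. The summed CPM of the 15 genes was 1118, 1122 and 1107 at day 7, against 2506, 3739 and 5767 at day 1, and day 1 library 1 was the nearest to day 7. Sfn, the epithelial 14-3-3 sigma, fell by 4.19 and Itga3, a laminin-binding integrin, by 2.64 on the log2 scale. Of 23 differentiation and barrier genes 22 were tested, 16 fell and 1 rose (median -3.23). Flg2, a filaggrin relative of the cornified layer, had 0.595, 0.881 and 0.279 CPM at day 7, against 4.62, 40.4 and 74.5 CPM at day 1 (log2 fold change -6.07 ± 1.03 SE, edgeR adjusted p = 0.000975). Aloxe3, a lipoxygenase of the lipid barrier, had 0.818, 0.474 and 0.628 CPM at day 7, against 23.4, 35.0 and 44.4 CPM at day 1. Krtdap, a keratinocyte differentiation protein, had 4.98, 4.95 and 5.17 CPM at day 7, against 30.7, 156 and 374 CPM at day 1. Krt10, the suprabasal keratin, had 21.1, 18.8 and 19.3 CPM at day 7, against 21.8, 112 and 238 CPM at day 1 (log2 fold change -2.65 ± 0.85 SE, edgeR adjusted p = 0.0272), a call lost without any library but day 1 library 1. Lor, the cornified envelope protein, had 2.38, 2.85 and 3.63 CPM at day 7, against 12.1, 26.8 and 106 CPM at day 1 (log2 fold change -4.02 ± 1.13 SE, edgeR adjusted p = 0.0153), a call lost without day 1 library 3 or day 7 library 1 or 2. The 1 that rose was Tgm3, the transglutaminase of hair follicle and cornified layer, with 13.9, 12.7 and 9.91 CPM at day 7, against 1.9, 2.96 and 3.23 CPM at day 1; it is named after its value was seen. The fallen genes numbered 9 without day 1 library 3, the library with the highest mean level of that list, and 9 with the muscle and adipocyte covariates. Of 16 wound-edge keratinocyte genes 15 were tested, 10 fell and none rose (median -2.89), or 6 without day 1 library 3 or with the covariates. Epgn, an EGF receptor ligand, had 0.297, 0.271 and 0.419 CPM at day 7, against 7.0, 9.17 and 17.9 CPM at day 1. Sprr1a, a small proline-rich protein of activated keratinocytes, had 2.01, 2.10 and 1.81 CPM at day 7, against 14.6, 23.9 and 137 CPM at day 1. Krt6a, an activation keratin, had 23.7, 23.2 and 23.1 CPM at day 7, against 21.7, 38.9 and 95.9 CPM at day 1 and did not pass (log2 fold change -1.16 ± 0.66 SE, edgeR adjusted p = 0.188). Reads shared between close keratin, Sprr1 and late cornified envelope paralogs were not counted, so the levels of these genes are uncertain.

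**Figure D4:**
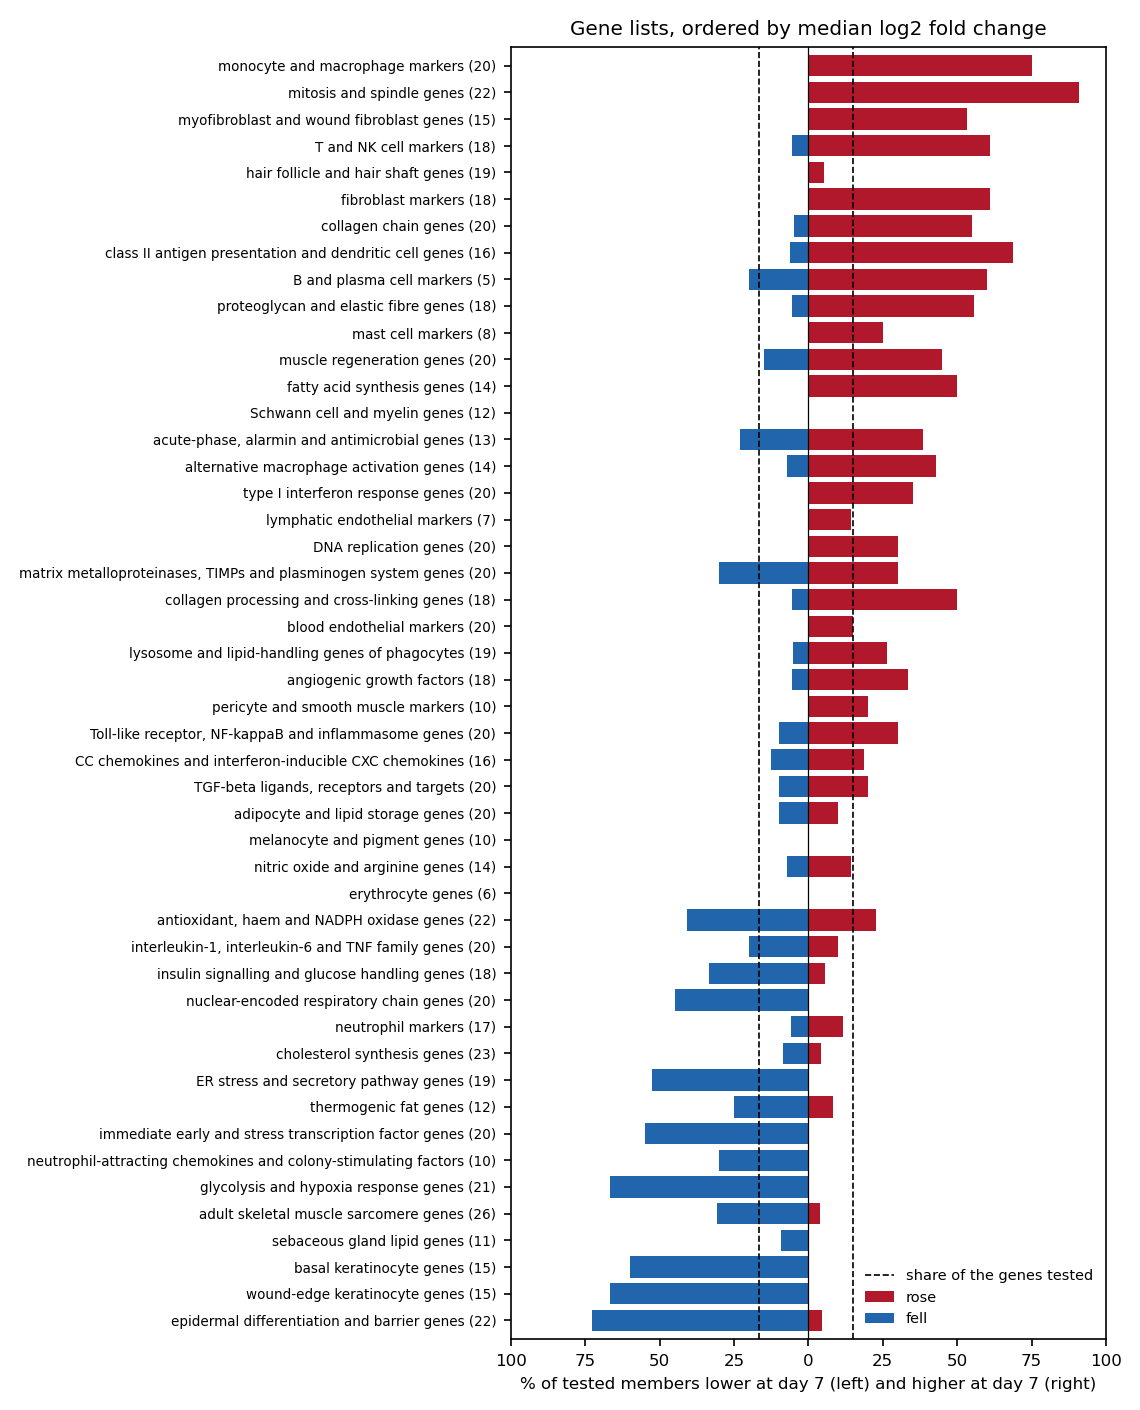
Bars give, for each of 48 gene lists with the number of tested members in brackets, the percent of tested members that fell (blue, to the left) or rose (red, to the right) at day 7; dashed lines mark the 16.6% that fell and the 15.0% that rose among all genes tested. Lists run by median log2 fold change, with macrophage (2.56), mitosis (2.32) and myofibroblast (2.30) lists at the top and the 3 keratinocyte lists at the bottom.

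Many genes of the early injury response fell, Fos and Jun not among them. Of 20 immediate early and stress transcription factor genes 11 fell and none rose (median -1.26), and 9 to 12 fell with any 1 library left out. Junb, an AP-1 subunit, had 41.8, 44.0 and 44.8 CPM at day 7, against 151, 228 and 349 CPM at day 1 (log2 fold change -2.48 ± 0.27 SE, edgeR adjusted p = 5.64e-05). Fosl1, the AP-1 subunit Fra-1 of migrating cells, had 0.446, 0.136 and 0.14 CPM at day 7, against 11.6, 2.73 and 5.51 CPM at day 1. Zfp36, which destabilises inflammatory mRNAs, fell by 1.80 on the log2 scale. Fos, named after its value was seen, had 10.3, 6.43 and 9.29 CPM at day 7, against 6.18, 10.5 and 11.2 CPM at day 1. Jun, likewise named, had 88.2, 82.5 and 83.3 CPM at day 7, against 71.4, 86.2 and 112 CPM at day 1. Neither passed, and both overlapped between the days. Of 19 ER stress and secretory pathway genes 10 fell and none rose (median -0.69). With any 1 library left out 8 to 10 fell, and 3 rose without day 1 library 1 and 2 with the muscle and adipocyte covariates. Xbp1, the factor of the unfolded protein response, had 124, 118 and 127 CPM at day 7, against 541, 500.1 and 466 CPM at day 1 (log2 fold change -2.03 ± 0.21 SE, edgeR adjusted p = 3.59e-05). Hspa5, the ER chaperone BiP, had 313, 294 and 304 CPM at day 7, against 971, 1116 and 623 CPM at day 1. Atf4, the integrated stress response factor, fell by 1.93 on the log2 scale.

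Many genes of glycolysis and the hypoxia response fell. Of 21 such genes 14 fell and none rose (median -1.47). With any 1 library left out 10 to 13 fell, and 3 rose without day 1 library 1. Pgk1, phosphoglycerate kinase, had 212, 214 and 228 CPM at day 7, against 490.4, 1517 and 1212 CPM at day 1 (log2 fold change -2.30 ± 0.36 SE, edgeR adjusted p = 0.000553). Ldha, lactate dehydrogenase A, had 1302, 1314 and 1334 CPM at day 7, against 3360, 4802 and 3426 CPM at day 1. Slc2a1, the glucose transporter GLUT1, had 31.1, 31.2 and 31.1 CPM at day 7, against 70.2, 83.2 and 101 CPM at day 1 (log2 fold change -1.44 ± 0.27 SE, edgeR adjusted p = 0.00168), and the hypoxia-induced Bnip3 fell by 2.67 on the log2 scale. The summed CPM of the 21 genes was 12363, 12411 and 12469 at day 7, against 13115, 67413 and 42376 at day 1, so that day 1 library 1, the one poor in muscle RNA, lay near day 7. In 11 of the 21 every day 7 library was below every day 1 library, beside 23.8% of all genes tested. With the muscle and adipocyte covariates 14 fell and 2 rose. Of 20 nuclear-encoded respiratory chain genes 9 fell and none rose (median -0.59), led by Cox5a, a subunit of complex IV (log2 fold change -1.45 ± 0.24 SE, edgeR adjusted p = 0.000807). That count was 3 or 4 without any 1 library other than day 1 library 1, and 13 without that one. Of 18 insulin signalling and glucose handling genes 6 fell and 1 rose (median -0.53). Pdk4, which holds back glucose oxidation in fasted and diabetic muscle, had 99.95, 93.8 and 98.5 CPM at day 7, against 346, 4794 and 5876 CPM at day 1 (log2 fold change -5.24 ± 0.94 SE, edgeR adjusted p = 0.00136). Socs3, a feedback inhibitor of cytokine and insulin signals, had 18.6, 18.3 and 20.4 CPM at day 7, against 65.4, 82.0 and 191 CPM at day 1. The one that rose was the IGF-binding protein Igfbp5, at 356, 348 and 339 CPM at day 7, against 69.7, 45.5 and 38.0 CPM at day 1. Pdk4 was lowest in library 1 among the day 1 libraries.

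Genes of redox control moved in both directions. Of 22 antioxidant, haem and NADPH oxidase genes 5 rose and 9 fell (median -0.42). The metallothionein Mt1, which binds zinc and copper, had 661, 642 and 656 CPM at day 7, against 8057, 9996 and 6255 CPM at day 1 (log2 fold change -3.63 ± 0.43 SE, edgeR adjusted p = 0.000119). Mt2 fell by 3.61 on the log2 scale. Srxn1, the sulfiredoxin controlled by NRF2, had 43.7, 45.4 and 47.5 CPM at day 7, against 368, 316 and 222 CPM at day 1. Hmox1, haem oxygenase, had 104, 103 and 107 CPM at day 7, against 238, 63.2 and 91.2 CPM at day 1 and did not pass (log2 fold change -0.32 ± 0.48 SE, edgeR adjusted p = 0.634), and its log2 fold change was 0.43 without day 1 library 1. The fallen genes numbered 4 without day 7 library 1 or 3 and 5 without day 1 library 2, and the risen 3 without day 1 library 2 or 3.

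Genes of fatty acid synthesis and leptin rose, while the count of adipocyte markers rested on day 1 library 1. Of 20 adipocyte and lipid storage genes 2 rose (10%) and 2 fell (10%), under the 15.0% and 16.6% of all genes tested (median 0.07). Without day 1 library 1, 13 rose and 3 fell. Fabp4, the fatty acid binding protein of adipocytes, had 14770, 14440 and 14300 CPM at day 7, against 40620, 6881 and 3118 CPM at day 1 (log2 fold change -0.22 ± 0.73 SE, edgeR adjusted p = 0.842), and without day 1 library 1 its log2 fold change was 1.53 at an edgeR adjusted p of 0.0414. Adipoq, adiponectin, had 1347, 1343 and 1348 CPM at day 7, against 1632, 215 and 95.1 CPM at day 1 and did not pass (log2 fold change 1.06 ± 0.86 SE, edgeR adjusted p = 0.365). Lep, leptin, had 27.7, 28.6 and 26 CPM at day 7, against 2.38, 0.834 and 1.65 CPM at day 1 (log2 fold change 4.07 ± 0.51 SE, edgeR adjusted p = 0.000161). Dgat2, which makes triglycerides, had 521, 548 and 558 CPM at day 7, against 231, 29.4 and 42.1 CPM at day 1. For Lep and Dgat2 each day 7 library lay above each day 1 library. Plin4 and Lpin1, which act on lipid droplets and triglyceride assembly, fell by 1.74 and 1.60 on the log2 scale, the Lpin1 call being lost without day 7 library 2. Of 14 fatty acid synthesis genes 7 rose and none fell (median 1.36), 4 without any 1 library other than day 1 library 1 and 11 without that one. Fasn, the fatty acid synthase, had 4948, 5032 and 5143 CPM at day 7, against 1376, 204 and 126 CPM at day 1 (log2 fold change 3.15 ± 0.82 SE, edgeR adjusted p = 0.0103). Thrsp, its regulator in fat, had 2101, 2113 and 2147 CPM at day 7, against 228, 56.0 and 15.3 CPM at day 1. Cholesterol synthesis genes gave 1 rise (4.35%) and 2 falls (8.70%) among 23, under the 15.0% and 16.6% of all genes tested (median -0.66). They gave 3 rises without day 1 library 1. Of 12 thermogenic fat genes 1 rose and 3 fell (median -0.71). Only 1 fell without any 1 of the day 7 libraries, or with only the 9 control libraries fitted. Adrb3, the adrenergic receptor of fat, had 121, 119.7 and 122 CPM at day 7, against 14.9, 2.2 and 1.08 CPM at day 1. Ucp1, the uncoupling protein of brown fat, had 5.13, 5.89 and 4.61 CPM at day 7, against 185, 44.4 and 1.01 CPM at day 1, a fall (log2 fold change -3.88 ± 1.15 SE, edgeR adjusted p = 0.0196) whose call was lost without day 1 library 1 or any day 7 library.

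The blood vessel markers that passed rose, in a share that equalled that of all genes. Of 20 blood endothelial markers 3 rose (15.0%, as of all genes tested) and none fell (median 0.56), but 11 rose without day 1 library 1. Aplnr, the apelin receptor of sprouting and venous endothelium, had 79.5, 84.3 and 79.5 CPM at day 7, against 5.30, 1.9 and 1.65 CPM at day 1 (log2 fold change 4.78 ± 0.63 SE, edgeR adjusted p = 0.00022). Esm1, a tip cell gene, rose by 2.08, and Vwf, von Willebrand factor, by 1.40 on the log2 scale, though the Vwf call was lost without day 1 library 2 or 3 or day 7 library 1 or 3. Pecam1, the endothelial adhesion molecule CD31, had 263, 272 and 269 CPM at day 7, against 587, 267 and 139.5 CPM at day 1 and did not pass (log2 fold change -0.31 ± 0.44 SE, edgeR adjusted p = 0.619). Kdr, the VEGF receptor 2, had 124, 124 and 124 CPM at day 7, against 144, 73.6 and 35.3 CPM at day 1 and did not pass (log2 fold change 0.56 ± 0.37 SE, edgeR adjusted p = 0.268). Both were highest in day 1 library 1 of all 6. Of 18 angiogenic growth factors 6 rose and 1 fell (median 0.51), with 10 rising without day 1 library 1. Pdgfc, which acts on fibroblasts, had 30.1, 27.8 and 32.0 CPM at day 7, against 7.27, 2.2 and 5.07 CPM at day 1. Pgf, placental growth factor, fell, with 5.88, 7.18 and 7.26 CPM at day 7, against 126, 24.4 and 12.4 CPM at day 1 (log2 fold change -3.0 ± 0.66 SE, edgeR adjusted p = 0.00425). Vegfa had 71.7, 78.3 and 73.7 CPM at day 7, against 139, 107 and 75.0 CPM at day 1 and did not pass (log2 fold change -0.52 ± 0.36 SE, edgeR adjusted p = 0.285). Schwann cell and myelin genes gave no edgeR call among 12, 4 of them having an unadjusted p below 0.05, and DESeq2 called 4 and limma-voom 3. In edgeR 6 of them rose without day 1 library 3, 3 rose with the muscle and adipocyte covariates, and 1 fell without day 1 library 1. The day 7 libraries were above all day 1 libraries for 10 of them, beside 26.1% of the genes tested, and their median log2 fold change was 1.35. Of 20 hair follicle genes 19 were tested and 1 rose, the stem cell receptor Lgr5 with 6.62, 4.74 and 5.45 CPM at day 7, against 0.272, 0.227 and 0.887 CPM at day 1. In that list 5 genes rose under DESeq2 and 9 in edgeR with the covariates. Pigment genes gave no edgeR call among 10, with 1 at an unadjusted p below 0.05, 2 called by DESeq2 and 1 by limma-voom; edgeR called 5 as risen with the covariates and 1 without day 1 library 3. Erythrocyte genes gave none among 6 tested of 9 under edgeR, DESeq2 or limma-voom, with 0 at an unadjusted p below 0.05. Tyr, the melanin-forming tyrosinase, had 0.0744, 0.0677 and 0 CPM at day 7, against 0, 0 and 0.0634 CPM at day 1. Those are 2 counts at day 7 and 1 at day 1. Still, its log2 fold change ran from 0.38 to 19.1 over the alternatives, and 1 of them called it. Calls of genes with so few counts under the alternatives are therefore uncertain. Hba-a1, an alpha-globin gene with a near-identical copy, had 407, 414 and 419 CPM at day 7, against 345, 1074 and 259 CPM at day 1.

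The same days were sampled in hydrogel-treated wounds, which share no library with the control arm, so the difference between the arms in their day 7 minus day 1 change could be tested. It passed for 2275 of 17592 genes (12.9%), with the control change the more positive in 1245 (7.08%) and the more negative in 1030 (5.85%). Among the 69 genes that lead the comparison or form the panel named for it, it passed for 32. Saa3 had 1011 ± 11.4 CPM at day 7 and 33.3 ± 25.7 CPM at day 1 in control wounds (SD, n = 3 each), against 44.1 ± 20.1 and 1111 ± 390.1 CPM on those days in hydrogel wounds, so that the direction was opposite (control minus hydrogel 9.57 ± 1.67 SE, edgeR adjusted p = 0.00349). Myh3 had 375 ± 7.27 CPM at day 7 and 2.27 ± 3.05 CPM at day 1 in control wounds, against 19.4 ± 1.58 and 6.99 ± 5.24 CPM in hydrogel wounds; it was higher at day 7 in both arms, by more in the control arm (control minus hydrogel 5.89 ± 1.24 SE, edgeR adjusted p = 0.00802). Col1a1 had 2322 ± 40.5 and 66.8 ± 28.9 CPM in control wounds at days 7 and 1, against 359 ± 33.8 and 228 ± 33.7 CPM in hydrogel wounds (control minus hydrogel 4.46 ± 0.55 SE, edgeR adjusted p = 0.000645). Krt14 had 117 ± 3.02 and 1027 ± 429 CPM in control wounds at days 7 and 1, against 3048 ± 51.6 and 1173 ± 214 CPM in hydrogel wounds (control minus hydrogel -4.52 ± 0.86 SE, edgeR adjusted p = 0.00511). Col1a1 was higher at day 7 than at day 1 in both arms, and Krt14 was lower at day 7 in control wounds and higher in hydrogel wounds. By list, beside 12.9% of all genes tested, 10 of 15 basal keratinocyte genes, 10 of 20 macrophage markers, 10 of 18 proteoglycan and elastic fibre genes and 9 of 20 muscle regeneration genes passed, but 1 of 22 mitosis genes and none of 20 DNA replication genes. Such shares were also seen in other lists, among them 7 of 11 sebaceous, 10 of 17 neutrophil and 12 of 22 epidermal differentiation genes. Of the Toll-like receptor and NF-kappaB genes 11 of 20 passed, and of the cholesterol synthesis genes 11 of 23. A p above the threshold does not show that the arms changed alike. The count was 4741 without day 1 library 1 of the control arm, 1566 and 1429 without day 1 library 2 or 3, and 1294, 1299 and 1342 without day 7 library 1, 2 or 3. No gene passed in edgeR with the day 7 libraries of each arm summed, where 1756 had an unadjusted p under 0.05; DESeq2 with the libraries kept apart called 3334.

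**Figure D5:**
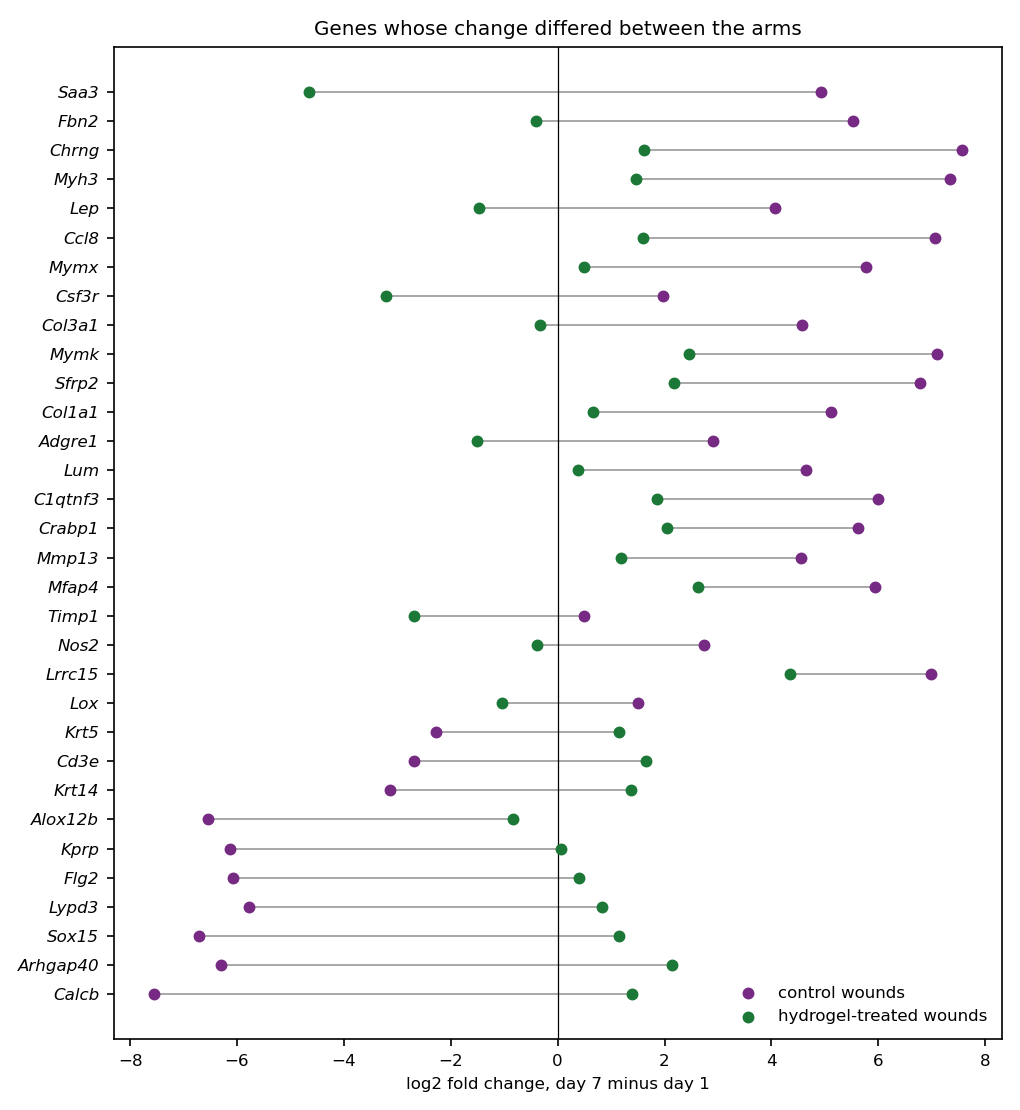
For each of the 32 named genes whose change differed between the arms, a purple point gives the log2 fold change, day 7 minus day 1, in control wounds and a green point that in hydrogel-treated wounds, joined by a line; genes are ordered by the difference. Saa3 (difference 9.57) is at the top and Calcb (-8.93) at the bottom, and Lrrc15 rose in control wounds and was also above 0 in hydrogel wounds.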

How the data were processed

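Paired-end RNA-seq counts of 18 wound libraries were analysed. Per the labels' protocols, total RNA was extracted with TriQuick reagent and libraries were made with a Hieff NGS MaxUp mRNA kit. Per the submitters' processing notes, the tools were Trim Galore 0.6.10, FastQC 0.11.9, HISAT2 2.2.1, SAMtools 1.9 and featureCounts 2.0.6 with the build mm10. Per the file headers, the deposited counts are raw read pairs per gene name over GENCODE vM25 exons of GRCm38. The commands in the headers set no strand and no counting of multi-mapping pairs, so overlapping genes on opposite strands and close paralogs are uncertain, and 32 mitochondrial symbols stand at 0. What filter made the alignments high-quality is not given in the sources used here.

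Genes were kept by edgeR's filterByExpr (minimum count 10, total 15) and scaled by TMM. The quasi-likelihood F test of edgeR 4.0.16 (R 4.3.3) took all 18 wound libraries in one model of 6 group means, leaving 12 residual degrees of freedom and a shared estimate of the spread, and p-values were adjusted by Benjamini-Hochberg over 17592 genes. The contrast was control day 7 minus day 1, and the difference between arms was its interaction with the hydrogel. Genes named were at most the 12 largest changes each way (adjusted p below 0.05, at least 5 CPM in the higher group, no overlap), up to 4 per list by p and a panel; others are marked as named after their values were seen. Some genes that this rule names are not reported here. The comparison, the panel and the 48 lists (821 symbols, 816 in the files, 787 tested) were chosen with earlier results of these data known. Alternatives were RLE scaling, other filters, DESeq2 1.42.0, limma-voom (limma 3.58.1), a 2-fold minimum, fewer libraries, a replicate block, each library left out, summed day 7 libraries and muscle and adipocyte covariates.

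On simulated counts for control day 7 against day 1 over 17592 genes, with 200 genes changed, the test found 75% of 4-fold and 15% of 2-fold changes when groups shared a spread, and 3.23% of its calls were unchanged genes. With each group's own spread it found 57% and 4%, and 11.6% of calls were unchanged genes. All groups had equal mean levels apart from the 200 changed genes, and differences in muscle and fat RNA between libraries were not simulated. These shares therefore need not hold for the real comparison.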

Additional observations from a re-analysis of the deposited data

Results flagged for a closer look

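For 32 of the 69 leading and panel genes the day 7 minus day 1 change differed between control and hydrogel-treated wounds, by the interaction test of edgeR with p-values adjusted over all genes. Values are log2 differences, the control change minus the hydrogel change, with 3 libraries per arm and day. Among genes of forming muscle the difference was 5.94 for Chrng, 5.89 for Myh3, 4.65 for Mymk and 5.28 for Mymx. All 4 rose in control wounds.

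Among fibroblast and matrix genes it was 5.95 for Fbn2, 4.90 for Col3a1, 4.61 for Sfrp2, 4.46 for Col1a1 and 4.27 for Lum. It was 4.14 for C1qtnf3, 3.56 for Crabp1, 3.37 for Mmp13, 3.32 for Mfap4, 2.64 for Lrrc15 and 2.54 for Lox. Timp1, which did not pass in control wounds, differed by 3.18.

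Among genes of immune cells and inflammation it was 9.57 for Saa3, 5.46 for Ccl8, 5.18 for Csf3r, 4.41 for Adgre1 and 3.13 for Nos2, all risen in control wounds. It was -4.33 for Cd3e, which fell there. Lep, the leptin gene of fat cells, differed by 5.55.

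Among epidermal genes, all fallen in control wounds, it was -7.85 for Sox15, -6.60 for Lypd3, -6.46 for Flg2, -6.20 for Kprp and -5.71 for Alox12b. The basal keratins differed by -4.52 for Krt14 and -3.43 for Krt5. The largest negative values were -8.93 for Calcb, which had 2 counts at day 7 in control wounds, and -8.43 for Arhgap40. Over all genes, 1299 differed between the arms with muscle and adipocyte scores as covariates, against 2275 without them.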

How the results depend on the processing

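The counts of risen and fallen genes (2637 and 2916) moved most with the treatment of the close day 7 libraries: 87 rose and 10 fell with them summed. With a 2-fold minimum change 653 rose and 423 fell, and with only the 9 control libraries 1471 rose and 1606 fell. Leaving out 1 library gave 1561 to 4088 risen and 1637 to 3865 fallen genes. Other settings stayed within 1.5 times, at 2058 risen genes under limma-voom to 3243 with covariates and 2017 fallen without a filter to 3450 under DESeq2. The cause was not tested.

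For the difference between arms (2275 genes), a 2-fold minimum gave 783, the covariates 1299, the summed day 7 libraries 0 and single libraries left out 1294 to 4741. Without a filter 1525 genes passed. It needs both arms, so the fits to 6 or 9 control libraries give no value, and hydrogel libraries were not left out in turn. The share of mitosis promoters with TTTGAA was 72.2% in the longer window and 44.4% in the 250 bases before the start.

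Of 3526 values of named genes under alternatives, 3054 kept direction and side of the threshold, 444 lost the threshold, 18 gained it and 10 turned. Those that gained it were 5 for Mrc1, 2 each for Adipoq, Arg1, Mcpt4 and Myh4, and 1 each for Cd68, Kdr, Myog, Timp1 and Tyr. Without day 1 library 1, Pecam1 was 0.40, Fabp4 1.53, Myog -0.14 and Hmox1 0.43, and without day 1 library 2 Hba-a1 was 0.46; with single libraries left out Pecam1 ran from -0.67 to 0.40, Fabp4 from -0.71 to 1.53, Myog from -0.14 to 0.92, Hba-a1 from -0.78 to 0.46 and Hmox1 from -0.65 to 0.43. With the covariates, Arg1 was 0.19, Fabp4 0.026 and Hmox1 0.082. Fabp4 was 0.60 under limma-voom.

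The labels number the libraries 1 to 3 on each day. Deviations of same-numbered libraries from their group means had correlations of 0.00109, 0.00331 and -0.00609, all under 0.1. For the median gene the day 7 deviations were near counting noise, so a pairing could hardly show. Whether same-numbered libraries belong together is therefore not decided. With the replicate block 2997 genes rose, 2804 fell and 2530 differed between arms. It turned Fabp4 to 0.27, and of the named genes it moved Mrc1 (2.70, edgeR adjusted p = 0.0153) past the threshold and Acta1 (-1.89, edgeR adjusted p = 0.0769) and Plin2 (-1.57, edgeR adjusted p = 0.0563) off it.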

Other observations

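Other lists gave few calls, in shares to be read beside the 15.0% of all genes tested that rose and the 16.6% that fell. Of 19 lysosome and lipid-loading genes 5 rose and 1 fell (median 0.51); 12 rose without day 1 library 1, 2 without day 1 library 2 and 3 without day 7 library 1, 2 or 3. Ctsk, a collagen-degrading cathepsin, had 168, 166 and 167 CPM at day 7, against 63.9, 18.7 and 39.0 CPM at day 1 (log2 fold change 2.04 ± 0.50 SE, edgeR adjusted p = 0.00742). Hexa, a lysosomal hexosaminidase, had 238, 241 and 229.6 CPM at day 7, against 77.9, 91.8 and 72.9 CPM at day 1. Plin2, a lipid droplet coat protein, was the one that fell, with 494, 498 and 509 CPM at day 7, against 4394, 530.5 and 550.5 CPM at day 1 (log2 fold change -1.87 ± 0.60 SE, edgeR adjusted p = 0.0273), a call lost without day 1 library 1 or any day 7 library.

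For the lists that follow the shares called were near or under those of all genes, and single members are described. Of 9 lymphatic endothelial markers 7 were tested and Mmrn1, the vessel-wall protein multimerin, rose with 4.61, 4.95 and 5.66 CPM at day 7, against 0.612, 1.67 and 0.317 CPM at day 1. Of 10 pericyte and smooth muscle markers 2 rose, Rgs5 with 331, 330.4 and 319 CPM at day 7, against 105, 226 and 147 CPM at day 1 and Pdgfrb, the PDGF receptor of pericytes and fibroblasts, by 0.52 on the log2 scale. With single libraries left out, Rgs5 passed only without day 1 library 2 and Pdgfrb only without day 1 library 1. Of 11 sebaceous markers 1 fell, Plin5, a droplet coat protein that muscle and liver also express, with 11.2, 11.2 and 11.8 CPM at day 7, against 52.7, 97.4 and 94.8 CPM at day 1 (log2 fold change -2.84 ± 0.44 SE, edgeR adjusted p = 0.000517). Of 15 arginine, nitric oxide and eicosanoid genes 14 were tested, 2 rose and 1 fell, or 4 and 3 without day 1 library 1. The leukotriene enzyme Alox5 had 12.3, 11.7 and 11.1 CPM at day 7, against 4.01, 1.97 and 4.06 CPM at day 1, a rise lost without any library but day 1 library 1.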
